A study of Mus musculus with 18 samples.

Results

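Described here are 9 genes that mark the dendritic cell (DC) and macrophage lineages or carry the growth factor signals on which these cells depend: Flt3, Zbtb46, Csf1r, Csf2ra, Csf2rb, Adgre1, Mertk, Spi1 and Cd209a. They were taken by symbol from the 29875 genes of the deposited count table, and no level or test result enters the rule, though the genes were picked with earlier results of these data known. Of the 9, 8 were among the 13844 genes with enough counts to be tested, and Cd209a was not. The study took bone marrow from C57Bl6/J wild-type animals, 8 to 12 weeks old, and grew the cells with 10% supernatant of a hybridoma that secretes granulocyte-macrophage colony-stimulating factor (GM-CSF), with fresh medium on days 3 and 6. On day 8 the cells received 200 ng/ml lipopolysaccharide (LPS), a bacterial cell wall product that matures DCs, and 24 hours later they were loaded into migration chambers. The chambers held bovine collagen at 1.7, 2.6, 3.5 or 4.4 mg/ml, or no collagen (suspension). RNA was taken 5 hours after a gradient of CCL19, the chemokine that guides mature DCs, was set up. By the labels, only 1 of the 2 suspension groups had CCL19. Each of the 4 collagen densities and the 2 suspension groups had 3 libraries, 18 in all, titled biological replicates 1 to 3.

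The suspension groups are called by their sample titles, one "plus CCL19" and the other without it. The library names attach the CCL19 mark to the opposite group, so no direction for CCL19 is drawn here. Nothing in the labels ties a library to 1 animal or 1 culture, and the p-values measure the spread between these libraries. Because the samples are bulk cultures, fewer cells of a type and less RNA of a gene per cell cannot be told apart.

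DCs and macrophages both arise from bone marrow myeloid progenitors under the transcription factor PU.1, encoded by Spi1, and they part ways through different growth factor receptors. FLT3 and its ligand drive classical DCs, the CSF1 receptor keeps most macrophages alive, and the GM-CSF receptor, a pair of an alpha chain (Csf2ra) and a beta chain (Csf2rb), supports the mixed cultures that GM-CSF yields from bone marrow. Such cultures are known to hold DC-like and macrophage-like cells side by side, with granulocytes among them, which is why lineage genes are read as a check on what was cultured.

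The libraries held 13062944 to 28059839 counts, and no library was a copy of another. The libraries differed by replicate number. Same-numbered libraries carry the same date and the same sequencing lane in their names, and they also shared the sex of the mice as read from the RNA: Xist, the transcript of the inactive X, stood at 29.3 to 229 CPM (counts scaled to library depth) in replicates 1 and 2 and at 0 in the 6 libraries of replicate 3, where 4 Y-linked genes summed to 54.7 to 183 CPM against at most 0.0773 elsewhere. The study's methods name male mice as the source of marrow, which the 12 libraries of replicates 1 and 2 go against. Results are therefore given from a fit of the 6 group means and, where the call differs, also from a fit with the replicate number as a block. A gene is called when its adjusted p in edgeR's quasi-likelihood test (Benjamini-Hochberg over 13844 genes) is under 0.1. CPM values are scaled by edgeR's TMM factors.

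The markers of mature DCs ranged from very high to near 0. Ccr7, the receptor for CCL19, averaged 4063 CPM in the collagen libraries and 3980 CPM in suspension, and Fscn1, the actin bundler of mature DCs, averaged 4101 and 3737 CPM, with 1153 to 2723 CPM in replicate 1 and 4594 to 7264 CPM in replicate 3. Il4i1, on the same list, averaged only 0.229 and 0.114 CPM. Cd74, the invariant chain of MHC class II, averaged 20890 and 19160 CPM. Of the subset markers of classical DCs, Irf8 averaged 2110 CPM in collagen and 1549 CPM in suspension, Sirpa 344.7 and 368.2 CPM, Irf4 158 and 145 CPM and Batf3 101.0 and 72.9 CPM. Xcr1 was low at 3.94 and 1.78 CPM, and Clec9a (0.166 and 0.0987 CPM) and Cadm1 (0.0868 and 0.248 CPM) were near 0.

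Among the 9 genes the levels, compared per kilobase of annotated exon, ran over more than 3 orders of size. Csf2rb was first with a median of 217 CPM per kb over the 18 libraries, followed by Spi1 at 114, Adgre1 at 113, Csf1r at 71.8, Csf2ra at 31.3, Zbtb46 at 5.44, Flt3 at 1.04, Mertk at 0.642 and Cd209a at 0.0558. Csf2rb exceeded Spi1 in 17 of 18 libraries. Spi1 and Adgre1 were not separated, with Spi1 above Adgre1 in 11 of 18, and neither were Flt3 and Mertk, with Flt3 above in 13 of 18. Csf2ra exceeded Zbtb46 and Zbtb46 exceeded Flt3 in 18 of 18 libraries. The order was the same when the length of the transcript with the longest coding sequence was used. At the RNA level the beta chain of the GM-CSF receptor was thus the most abundant of the 9 and the macrophage markers Adgre1 and Csf1r stood far above Flt3.

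**Figure D1:**
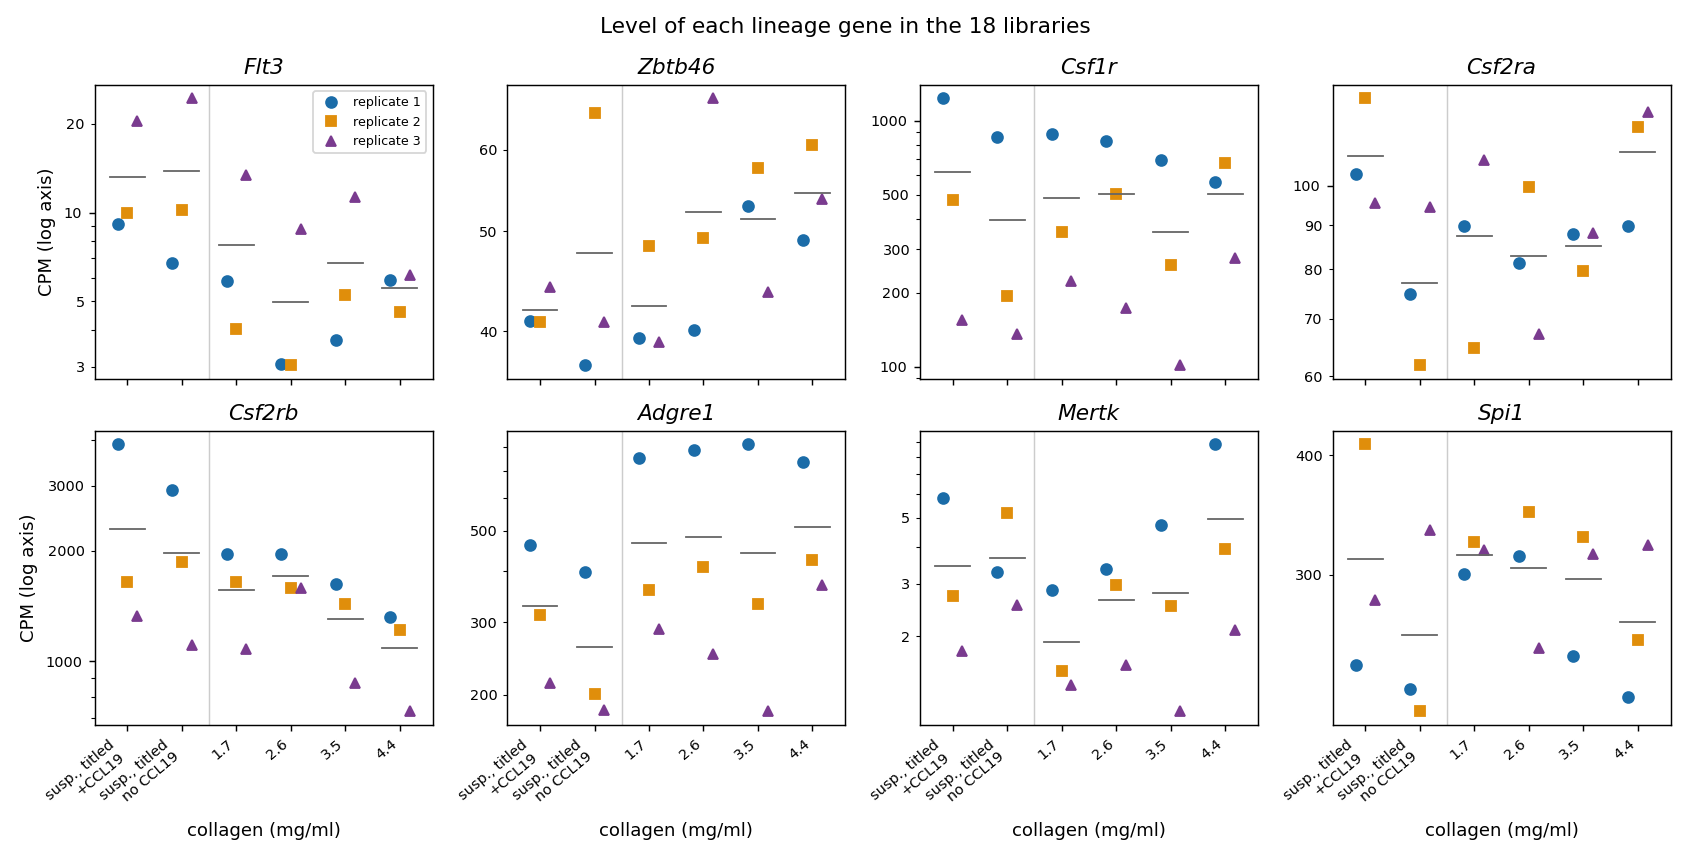
CPM (depth-scaled counts, log axis) of the 8 tested lineage genes in each of the 18 libraries, with the suspension groups left of the grey line and the 4 collagen densities right of it. Marker shape and colour give the replicate number and the grey bar the group mean; replicate 1 lies above replicate 3 for Csf1r, Csf2rb, Adgre1 and Mertk in all 6 groups, and below it for Flt3.

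The first question was whether lineage genes differed between cells in collagen (12 libraries) and cells in suspension (6 libraries). Flt3 was lower in collagen, and it was the only member called, 1 of 8, in a comparison that called 20.2% of all genes tested. With the replicate block 3 of 8 were called, Flt3 and Csf2rb lower and Adgre1 higher, where 34.8% of all genes were. The median log2 fold change of the 8 was -0.07 without the block and 0.03 with it, and that of all genes was 0.00 and 0.01. The members were thus called about as often as genes at large.

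**Figure D2:**
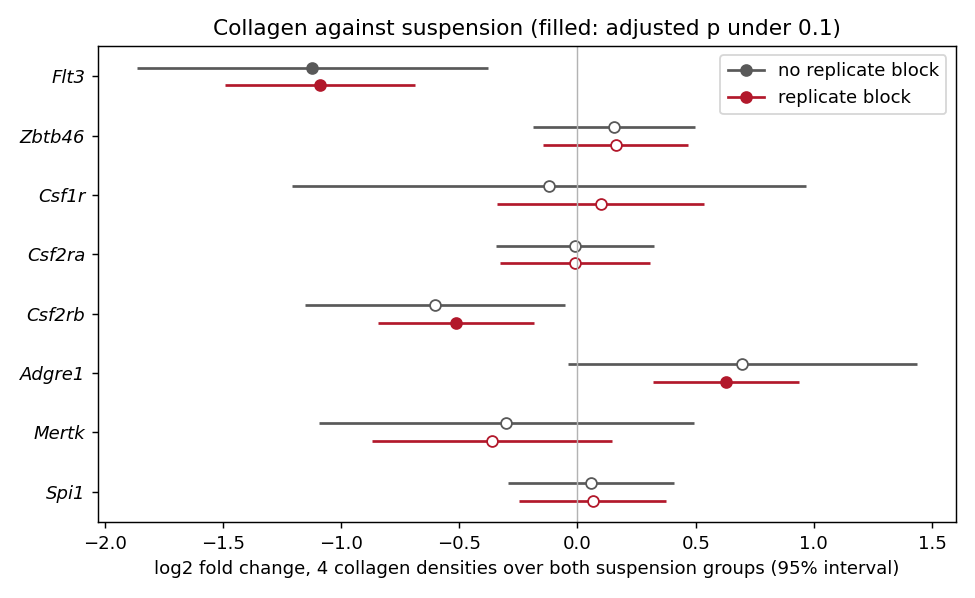
Log2 fold change of each tested lineage gene, mean of the 4 collagen densities over the mean of both suspension groups, with 95% intervals, from the fit without (grey) and with (red) the replicate number as a block. Filled points have an adjusted p under 0.1: Flt3 in both fits at -1.12 and -1.09, and Csf2rb and Adgre1 in the blocked fit alone.

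Flt3 (ENSMUSG00000042817) encodes the tyrosine kinase receptor for FLT3 ligand and lies on the minus strand of chromosome 5 at 147330741 to 147400489 (GRCm38). In replicate 1 it stood at 9.15 CPM in the suspension library titled plus CCL19 and 6.76 CPM in the other, and at 5.85, 3.06, 3.70 and 5.91 CPM from 1.7 to 4.4 mg/ml collagen. In replicate 2 the suspension libraries held 9.94 and 10.2 CPM, and the collagen libraries held 4.03, 3.04, 5.27 and 4.61 CPM in the same order. In replicate 3 these values were 20.4 and 24.4 CPM in suspension against 13.4, 8.81, 11.3 and 6.14 CPM in collagen. Within each replicate, all 4 collagen libraries lay below both suspension libraries, a pattern that 4.19% of all genes tested showed in that direction. Across replicates the groups overlapped, since the replicate 3 collagen libraries reached above the replicate 1 suspension libraries.

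The mean level of Flt3 was 6.26 ± 3.29 CPM in collagen (SD, n = 12) and 13.5 ± 7.14 CPM in suspension (SD, n = 6). The log2 fold change was -1.12 ± 0.35 (SE), 0.459-fold of suspension, with an edgeR adjusted p of 0.0446, and it was -1.09 ± 0.19 with the replicate block, with an adjusted p of 0.000518. The collagen libraries stood at 0.572, 0.419 and 0.43 of the suspension level in replicates 1, 2 and 3. Counts behind these values ran from 42 to 492 per library. Without the block the call was lost when GC content and length were corrected for (log2 fold change -0.92, adjusted p 0.131), when replicate 2 was left out (-1.10, 0.265), and when a replicate 3 library of either suspension group was left out (-0.89, 0.144 and -0.78, 0.183). The unblocked call was also lost with either suspension group alone as the control. In the blocked fit it held in all 18 omissions of 1 library, with log2 fold changes from -1.20 to -1.01.

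Flt3l, which encodes the ligand of this receptor, did not pass. It averaged 4.79 CPM in collagen and 4.47 CPM in suspension (log2 fold change 0.05, adjusted p 0.929).

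Csf2ra and Csf2rb encode the chains of the GM-CSF receptor, and the cultures were grown on its ligand. Csf2ra (ENSMUSG00000059326, chromosome 19 at 61223957 to 61228429, minus strand) is the ligand-specific chain. It ranged from 64.8 to 122 CPM in collagen, with a median of 89.0, and from 61.8 to 126 CPM in suspension, with a median of 95.1, so the groups covered the same range. The log2 fold change was -0.01 ± 0.16 (SE, 95% interval -0.35 to 0.32), with an adjusted p of 0.972.

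Csf2rb (ENSMUSG00000071713, chromosome 15 at 78325752 to 78353847, plus strand) is the signalling chain that the receptors for GM-CSF, IL-3 and IL-5 share. In replicate 1 it stood at 3895 and 2927 CPM in the suspension libraries titled plus and without CCL19, and at 1953, 1957, 1621 and 1319 CPM from 1.7 to 4.4 mg/ml. In replicate 2 it stood at 1638 and 1859 CPM in suspension against 1637, 1582, 1426 and 1217 CPM in collagen. In replicate 3 it stood at 1323 and 1105 CPM against 1081, 1582, 869 and 730 CPM. All 4 collagen libraries lay below both suspension libraries in replicates 1 and 2, in replicate 2 only just, and the 2.6 mg/ml library of replicate 3 lay above both. Lying below in all 3 replicates, which Csf2rb did not, was seen in 4.19% of all genes tested. The share for 2 replicates was not counted.

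The log2 fold change of Csf2rb was -0.60 ± 0.26 (SE) without the block (adjusted p 0.138, not called) and -0.51 ± 0.16 with it (adjusted p 0.0227, called). The blocked call was lost without replicate 1 of the suspension group titled plus CCL19, the library with the highest level (-0.35, adjusted p 0.124), and when GC content and length were corrected for in the blocked fit (-0.24, adjusted p 0.23). Collagen stood at 0.501 of the suspension level in replicate 1 and at 0.835 and 0.844 in replicates 2 and 3.

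Mice have a close copy of this gene, Csf2rb2, whose protein serves the IL-3 receptor alone. Their coding sequences share 95.2% of 2628 aligned bases, and 687 of the 50-base coding windows, the length of the reads, are identical between them. Over the whole Csf2rb transcript 18.9% of 50-base windows also occur in Csf2rb2. The sequences below show 1 window in which a read cannot be assigned and the window with the most differences, 12, which are in capitals. The identical window lies in the second exon of both genes, at 15:78335207-78335256 on the plus strand in Csf2rb and 15:78298180-78298229 on the minus strand in Csf2rb2. The differing one lies in exon 4, at 15:78338898-78338947 and 15:78294384-78294433 (GRCm38, GENCODE M21).
Csf2rb and Csf2rb2, identical: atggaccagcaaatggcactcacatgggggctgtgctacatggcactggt
Csf2rb, most different: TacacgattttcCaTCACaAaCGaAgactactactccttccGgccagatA
Csf2rb2, most different: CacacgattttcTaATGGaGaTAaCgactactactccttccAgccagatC

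How reads that match both genes were shared out in the count table is not given in the sources used here, so the split between them is uncertain. Csf2rb2 averaged 629.6 CPM in collagen and 1062 CPM in suspension. It was called in both fits, at -0.78 (adjusted p 0.0181) and -0.73 with the block (adjusted p 0.00153). Per kilobase, Csf2rb was 1.01 to 1.67 times Csf2rb2 over the 18 libraries. Csf2rb2 thus passed in both fits and Csf2rb in the blocked fit alone.

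Csf1r (ENSMUSG00000024621, chromosome 18 at 61100598 to 61132149, plus strand) encodes the receptor for CSF1 and IL-34. In replicate 1 it stood at 1233 and 857 CPM in suspension (titled plus and without CCL19) and at 881, 829.4, 695 and 561 CPM in collagen of rising density. In replicate 2 it stood at 475 and 193 CPM against 353, 505, 259 and 671 CPM. In replicate 3 it stood at 155 and 136 CPM against 222, 173, 101 and 276 CPM. Collagen and suspension libraries were interleaved in every replicate, and collagen averaged lower in replicate 1 (0.711 of suspension) and higher in replicates 2 and 3 (1.38 and 1.25). The log2 fold change was -0.12 ± 0.52 (SE) without the block (adjusted p 0.908) and 0.10 ± 0.21 with it (adjusted p 0.766), so neither a direction nor a call was obtained. Its exons overlap those of Hmgxb3 on the opposite strand over 873 bases. The library kit keeps strand, but the strand setting of the counting is not given, so some of these counts may belong to Hmgxb3. Its ligand Csf1 averaged 29.9 CPM in collagen and 22.5 CPM in suspension (log2 fold change 0.41, adjusted p 0.577).

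Adgre1 (ENSMUSG00000004730, chromosome 17 at 57358691 to 57483527, plus strand) encodes F4/80, an adhesion-type receptor used to mark mouse macrophages. In replicate 1 it stood at 462 and 398 CPM in suspension, titled plus and without CCL19, and at 753, 786, 811 and 737 CPM from 1.7 to 4.4 mg/ml collagen. In replicate 2 the values were 312 and 201 CPM in suspension against 360.3, 409.7, 332 and 426 CPM in collagen. In replicate 3 they were 213 and 184 CPM against 289, 252, 183 and 369 CPM. All 4 collagen libraries lay above both suspension libraries in replicates 1 and 2, and the 3.5 mg/ml library of replicate 3 lay just under them. Lying above in all 3 replicates, which Adgre1 did not, was seen in 2.43% of all genes tested, and the share for 2 replicates was not counted. Collagen stood at 1.80, 1.52 and 1.34 times suspension in replicates 1, 2 and 3.

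The log2 fold change of Adgre1 was 0.70 ± 0.35 (SE) without the block, which did not pass (adjusted p 0.205), and 0.63 ± 0.15 with it, which did (adjusted p 0.00459). The blocked call held in all 18 omissions of 1 library, with log2 fold changes from 0.57 to 0.69. In the blocked fit Adgre1 thus rose in collagen where Flt3 fell.

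Mertk (ENSMUSG00000014361, chromosome 2 at 128698956 to 128802894, plus strand) encodes a receptor kinase of the TYRO3, AXL and MERTK family with which macrophages take up dead cells. Its level was low, between 15 and 196 counts per library. In replicate 1 it stood at 5.83 and 3.28 CPM in suspension, titled plus and without CCL19, and at 2.85, 3.36, 4.73 and 8.84 CPM in collagen of rising density. In replicate 2 these were 2.72 and 5.19 CPM against 1.53, 2.96, 2.53 and 3.93 CPM, and in replicate 3 they were 1.78 and 2.55 CPM against 1.37, 1.60, 1.12 and 2.10 CPM. Collagen and suspension overlapped in every replicate (log2 fold change -0.30 ± 0.38 SE, adjusted p 0.652, and -0.36 with the block, adjusted p 0.287). The family members Axl, at 213.6 CPM in collagen and 154.2 CPM in suspension, and Tyro3, at 2.19 and 3.48 CPM, had log2 fold changes of 0.45 (adjusted p 0.305) and -0.66 (adjusted p 0.302). With the block both passed, Axl at 0.41 (adjusted p 0.0957) and Tyro3 at -0.79 (adjusted p 0.0758).

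Zbtb46 (ENSMUSG00000027583, chromosome 2 at 181387762 to 181459426, minus strand) encodes a zinc finger repressor found in classical DCs and their committed precursors. It ranged from 39.04 to 67.3 CPM in collagen, with a median of 49.2, and from 37.1 to 65.1 CPM in suspension, with a median of 40.9. Libraries of both kinds covered the same range (log2 fold change 0.16 ± 0.16 SE, adjusted p 0.579, and 0.16 with the block, adjusted p 0.443). Replicate 2 of the suspension group titled without CCL19 held 65.1 CPM, against 37.1 to 44.2 CPM in the other suspension libraries. With GC content and length corrected for in the blocked fit Zbtb46 passed as higher in collagen (0.34, adjusted p 0.0402).

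Spi1 (ENSMUSG00000002111, chromosome 2 at 91082390 to 91115756, plus strand) encodes PU.1, which both lineages need. It ranged from 223 to 349 CPM in collagen (median 314) and from 216 to 411 CPM in suspension (median 261). Its log2 fold change was 0.06 ± 0.17 (SE, 95% interval -0.30 to 0.41), with an adjusted p of 0.862. Collagen and suspension libraries covered the same range, and the highest and the lowest value were both in suspension.

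Cd209a (ENSMUSG00000031494, chromosome 8 at 3743397 to 3748984, minus strand) encodes a DC-SIGN type lectin of monocyte-derived DCs. It had 0 to 12 counts per library and 46 in all, and the 6 libraries of replicate 1 held 1 of them. The highest level was 0.599 CPM, in replicate 3 at 4.4 mg/ml. In a library, 3 counts correspond to 0.0941 to 0.256 CPM, and a count of 0 allows a level of up to that value. An exact two-sided permutation test over the 18564 ways to pick the 6 suspension libraries gave p = 0.642 for the difference in log2 CPM. That test exchanges libraries across replicate numbers, and most libraries held fewer than 3 counts, so it says little about a difference in Cd209a. Its relatives were as scarce: Cd209c, the only one tested, averaged 0.202 CPM in collagen and 0.355 CPM in suspension.

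The second question was whether lineage genes followed collagen density. At single densities none of the 8 was called without the block, where 0.0361%, 7.87%, 4.9% and 14.8% of all genes were called against suspension, from the lowest to the highest density. At an unadjusted p under 0.05 the counts were 0, 1, 0 and 2 of 8, and DESeq2 without the block called 0, 1, 0 and 1, each time Flt3. With the block the calls numbered 0, 2, 2 and 3 of 8, against 2.91%, 21.6%, 18.4% and 31.9% of all genes. The 4 densities share the suspension controls, so these comparisons are not independent of each other.

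Flt3 was lower at every density in the blocked fit, and the call was made at 2.6 mg/ml (log2 fold change -1.47 ± 0.30 SE, adjusted p 0.00469), 3.5 mg/ml (-0.997 ± 0.29, 0.0352) and also 4.4 mg/ml (-1.08 ± 0.29, 0.0137), while 1.7 mg/ml missed it (-0.82 ± 0.29, 0.172). Adgre1 was called at 2.6 mg/ml (0.64 ± 0.20, 0.0376) and 4.4 mg/ml (0.82 ± 0.20, 0.00648). Csf2rb was called at 3.5 mg/ml (-0.63 ± 0.23, 0.0881) and 4.4 mg/ml (-0.88 ± 0.24, 0.0119). Some of these rested on single libraries. The call of Flt3 at 4.4 mg/ml was lost without replicate 3 of that density (-0.74, 0.112) and at 3.5 mg/ml without replicate 1 or 3 of it (-0.85, 0.184 and -1.05, 0.118). That of Adgre1 at 2.6 mg/ml was lost without replicate 1 or 2 of that density (0.59, 0.101 and 0.59, 0.156). That of Csf2rb at 3.5 mg/ml, close to the threshold, was lost in 11 of 18 omissions: any library at 1.7 or 3.5 mg/ml, replicate 2 at 2.6 mg/ml, replicate 1 or 3 of the suspension group titled plus CCL19 and replicate 1 or 2 of the other (adjusted p over the 18 omissions 0.0541 to 0.303).

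The other members passed at no density in either fit. For Csf1r, Csf2ra, Zbtb46 and Spi1 the log2 fold changes lay between -0.49 (Csf1r at 3.5 mg/ml) and 0.28 (Zbtb46 at 4.4 mg/ml) without the block and between -0.47 and 0.48 (Csf1r at 3.5 and 4.4 mg/ml) with it. Mertk ran from -0.90 at 1.7 mg/ml to 0.48 at 4.4 mg/ml without the block (adjusted p 0.756 and 0.608). Cd209a was too low to be tested.

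**Figure D3:**
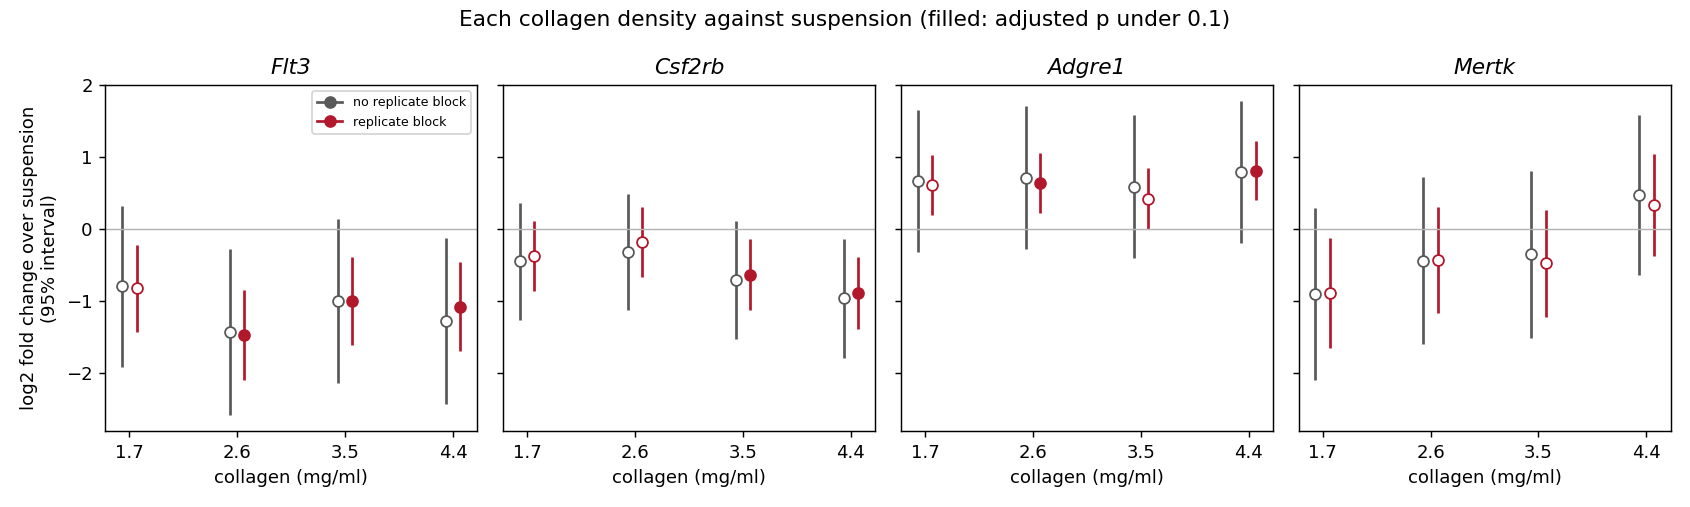
Log2 fold change of Flt3, Csf2rb, Adgre1 and Mertk at each collagen density over the mean of both suspension groups, with 95% intervals, from the fit without (grey) and with (red) the replicate block. Filled points have an adjusted p under 0.1. In the blocked fit Flt3 is filled at all densities but 1.7 mg/ml, Csf2rb at 3.5 and 4.4, Adgre1 at 2.6 and 4.4 and Mertk nowhere.

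Across the collagen densities alone, neither the linear trend nor 4.4 against 1.7 mg/ml called any of the 8 in either fit (at an unadjusted p under 0.05 without the block, 0 and 1). The trend called 0.00722% of all genes without the block and 1.45% with it, and 4.4 against 1.7 mg/ml called 0.00722% and 1.73%. Mertk came nearest. Its level at 4.4 mg/ml was 3.10, 2.57 and 1.54 times that at 1.7 mg/ml in replicates 1, 2 and 3, and 4.4 mg/ml was the highest of the 4 densities in 3 of 3 replicates, an order found in 3.94% of all genes tested. In log2 terms this was 1.38 ± 0.64 (SE, adjusted p 0.635) without and 1.23 ± 0.41 (adjusted p 0.162) with the block. DESeq2 with the block called it (1.27, adjusted p 0.0535), as did the blocked fit corrected for GC content and length (1.24, adjusted p 0.0842).

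Csf2rb showed the opposite order, with 4.4 mg/ml the lowest of the 4 densities in 3 of 3 replicates, as in 4.69% of all genes. It stood there at 0.675, 0.743 and 0.675 of its level at 1.7 mg/ml, and the difference of -0.52 (log2) did not pass in either fit (adjusted p 0.942, and 0.38 with the block). Zbtb46 was lowest at 1.7 mg/ml in 3 of 3 replicates, an order whose share over all genes was not counted. Log2 slopes per mg/ml without the block were steepest for Mertk at 0.47 and Csf2rb at -0.22. They were 0.12 for Zbtb46, 0.11 for Csf2ra, 0.03 for Adgre1, -0.04 for Csf1r, -0.08 for Spi1 and -0.11 for Flt3. None of these slopes passed, though DESeq2 with the block called that of Mertk. Flt3 kept no order over the densities: 4.4 over 1.7 mg/ml was 1.01, 1.14 and 0.459 in the 3 replicates.

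Between the suspension groups none of the 8 members tested was called in either fit, and none had an unadjusted p under 0.05. Of all genes edgeR called 0, and DESeq2 with the block called 194. Log2 differences, titled plus over titled without CCL19, were -0.06 for Flt3, 0.22 for Csf2rb, 0.34 for Adgre1, 0.65 for Csf1r and -0.10 for Mertk, with standard errors of 0.43 to 0.85, and -0.18 for Zbtb46 and 0.27 for Spi1, with standard errors of 0.26 and 0.27. Csf2ra had the smallest p, at 0.49 ± 0.26 (SE, edgeR adjusted p 0.761) and 0.50 ± 0.25 with the block (adjusted p 0.366).

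The third comparison was among the replicates themselves, and it was added after the values were seen. In the blocked fit 5 of the 8 differed between replicate numbers at an adjusted p under 0.1, where 48.3% of all genes did. Csf1r was 5.02 times as high in replicate 1 as in replicate 3 (adjusted p over the 3 replicates 8.4e-06), Mertk 2.68 times (0.00284), Adgre1 2.63 times (1.64e-05) and Csf2rb 1.98 times (0.00161). Each of these was higher in replicate 1 than in replicate 3 in 6 of 6 groups, as 19.3% of all genes were. Flt3 went the other way, 2.36 times as high in replicate 3 as in replicate 1 (0.000338). It was higher in replicate 3 than in replicate 1 in 6 of 6 groups, as 17.6% of all genes were. It was also the highest of the 3 replicates there, a stricter order whose share was not counted. Zbtb46 (0.311), Csf2ra (0.824) and Spi1 (0.343) did not pass.

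**Figure D4:**
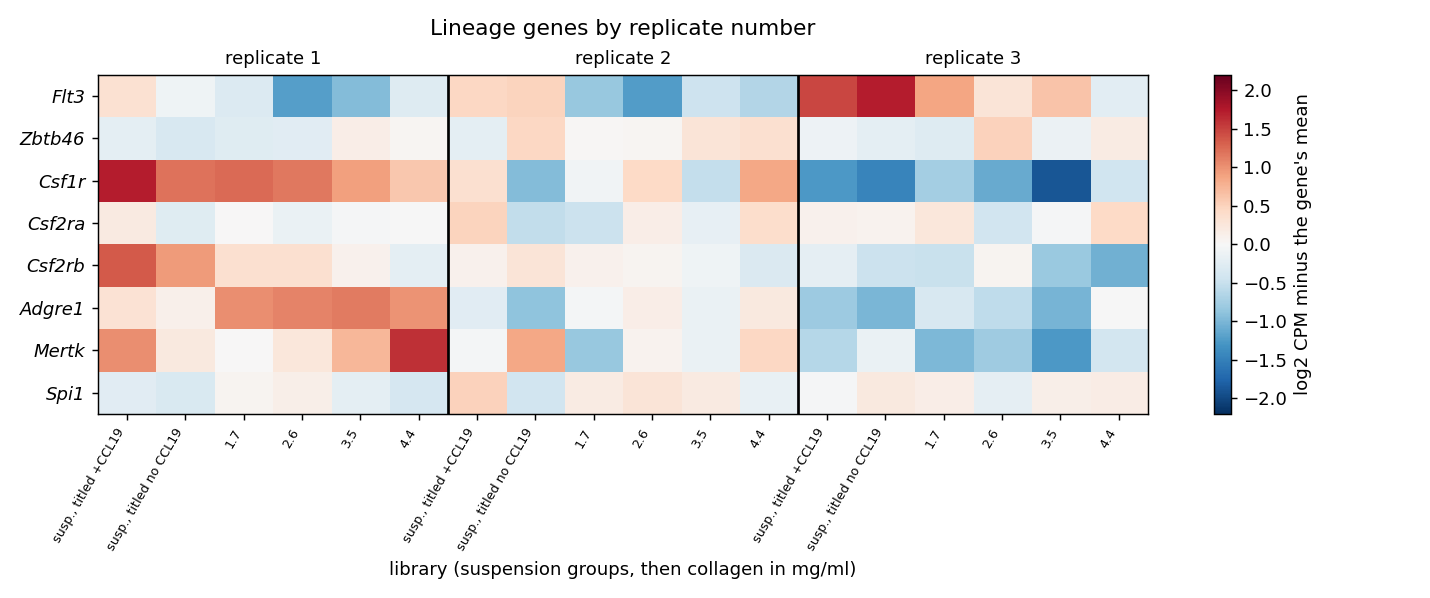
Log2 CPM of the 8 tested lineage genes minus each gene's mean over the 18 libraries, with libraries ordered by replicate number and, within it, the suspension groups followed by collagen of rising density. Red is above and blue below the gene's mean; Csf1r, Csf2rb, Adgre1 and Mertk are red mainly in replicate 1 and mostly blue in replicate 3, while Flt3 is darkest red in the suspension libraries of replicate 3.

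Per kilobase, the ratio of Csf1r to Flt3 was 101.5 to 289.8 in replicate 1, 20.25 to 177.9 in replicate 2 and 5.97 to 48.1 in replicate 3. For Csf1r, Adgre1, Mertk and Csf2rb the difference between replicates 1 and 3 (-2.33, -1.40, -1.42 and -0.99 on the log2 scale, replicate 3 over 1) was larger in size than that between collagen and suspension, a difference that was not itself tested. For Flt3 these were 1.24 and -1.09. Of 30 other macrophage and monocyte genes tested, 26 differed between replicates, where 48.3% of all genes did. Of these 26, 24 were higher in replicate 1 than in replicate 3. How many of all genes differed in each direction was not counted, here or for the next lists. C1qa, a complement subunit made by macrophages, fell by 4.40 on the log2 scale from replicate 1 to replicate 3, and Fcgr1, the high-affinity IgG receptor, by 3.09. Of 19 mature DC genes 14 differed and 11 of these were lower in replicate 1 than in replicate 3. Of 10 stromal and endothelial markers 9 differed, all higher in replicate 1 than in replicate 3. The list summed to 82.8 to 114 CPM in replicate 1 and 28.4 to 40.1 CPM in replicate 3. Vwf (27.5 to 59.7 CPM), Pecam1 (16.6 to 23.1 CPM) and Kdr (13.5 to 22.3 CPM) made up most of the sum in replicate 1. Col1a1 reached at most 1.89 CPM there. In replicate 2 the sum ran from 46.6 to 196 CPM, the highest at 2.6 mg/ml, where Col1a1 stood at 40.5 and Col3a1 at 37.0 CPM. Between replicates 1 and 2, whose libraries are alike in Xist and Y-linked RNA, Csf1r (-1.15, replicate 2 over 1, adjusted p 0.00294), Adgre1 (-0.95, 0.0007) and Csf2rb (-0.47, 0.0838) also differed, and Mertk (-0.62, 0.133) and Flt3 (0.04, 0.928) did not pass. Replicate number, date and lane cannot be told apart, nor can sex and replicate number in comparisons with replicate 3.

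Around these 9 genes stand the gene lists of their pathways and cell types. Among all genes 7.78% were called higher and 12.4% lower in collagen without the block, and 15.6% and 19.3% with it. Of 30 macrophage and monocyte genes tested, 4 rose and 2 fell without the block, and 13 rose and 3 fell with it, with a median log2 fold change of 0.38 and 0.47. The iron exporter Slc40a1 rose (1.27, adjusted p 0.0129), as did the scavenger receptor Marco (1.26, 0.0597), while Ccr2, the receptor that brings monocytes out of the marrow, fell (-1.07, 0.0584). C1qa, C1qb, C1qc and Fcgr1 rose in the blocked fit, C1qb by 1.01 (adjusted p 0.0159) and C1qa only just passing (0.0985). The genes of this list that fell with the block were Ccr2, Cd93 (-0.79, 0.00618) and Cx3cr1 (-1.29, 0.0438). Cd93 also passed without it (-0.77, 0.0702).

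Of 20 classical DC genes 1 rose and 2 fell (6 and 2 with the block, median 0.08 and 0.18). Wdfy4, needed for cross-presentation, fell (-0.92, adjusted p 0.00339), as did Naaa (-0.52, 0.0774), and the chemokine receptor Xcr1 rose at a low level (1.15, 0.074). In the blocked fit Itgax, encoding CD11c, rose by 0.72 (0.0168) and the transcription factor Batf3 by 0.53 (0.0171). Most of these genes passed in neither direction. Of 19 mature DC genes 2 rose and 0 fell (3 and 0 with the block), Pdcd1lg2 (0.77, 0.0278) and Samsn1 (0.87, 0.0566).

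Among 24 ligands, partners and signal transducers of the members' receptors, 2 fell and 0 rose (3 and 1 with the block). Besides Csf2rb2 this was Inpp5d, the phosphatase SHIP1 that restrains cytokine receptor signals (-0.97, adjusted p 0.0016). Jak2 (0.35, 0.512), Stat5a (0.14, 0.676) and the GM-CSF target Cish (0.12, 0.729) did not pass. Of 18 genes of dead cell uptake, 3 fell and 0 rose (5 and 2 with the block): Dock1 (-0.90, 0.00559), Lrp1 (-0.99, 0.0673) and Stab1 (-1.40, 0.0802). Of 32 myeloid transcription factor genes, a list that also holds the receptor Notch2, 7 rose and 5 fell (14 and 6 with the block). These were led by Egr2 (1.80, 0.00109), Gfi1 (2.71, 0.00321) and Gata1 (-2.60, 0.0108). Of 18 genes used to describe GM-CSF cultures 2 rose and 2 fell (5 and 2 with the block), with Ciita, the activator of MHC class II genes, lower (-1.03, 0.00492) and Clec7a, encoding dectin-1, higher (1.08, 0.0338).

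Markers of other cells that bone marrow cultures can hold were read as well. Of 13 eosinophil genes 10 fell and 0 rose (12 and 1 with the block), with a median log2 fold change of -2.71 and a summed level of 33.4 to 197 CPM in collagen (median 63.6) against 132 to 1492 CPM in suspension (median 395). Ear1 fell by 5.06 (adjusted p 0.000479), Ccr3 by 3.51 (0.000583) and Ear6 by 3.40 (0.000668). Of 20 neutrophil genes 5 fell and 0 rose (5 and 0 with the block), with a median log2 fold change of -0.28 and -0.11, and their summed level was 3241 to 8715 CPM in collagen (median 5234) and 1848 to 19750 CPM in suspension (median 5012). Both cell types carry the beta chain, and their part in the results for Csf2rb and Flt3 was not tested.

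Of 11 basophil and mast cell genes 1 rose and 2 fell (1 and 4 with the block; summed level 192 to 638 CPM in collagen, 226 to 679 in suspension), of 8 plasmacytoid DC genes 0 and 2 (3 and 2; 1106 to 9414 against 1305 to 4925), and of 8 osteoclast genes 0 and 2 (2 and 2; 299.6 to 647 against 280 to 567). Irf7, at 633.5 to 6497 CPM, and Bst2, at 353.7 to 2830 CPM, made up most of the plasmacytoid DC sum. On the same list Siglech reached at most 0.232 CPM and Ccr9 at most 0.271 CPM. Hdc reached 205 CPM in the basophil and mast cell list, and Acp5 351 CPM in the osteoclast list. Of 4 erythroid and platelet genes 1 rose (2 rose and 1 fell with the block), and of 7 lymphoid and 10 stromal genes none passed without the block (0 rose and 1 fell, and 2 rose and 1 fell, with it). Lymphoid genes summed to 2.82 to 26.9 CPM, with Cd3e at 6 counts in all 18 libraries. No gene of these lists that the table holds was at 0 in every library. The mitochondrial share of counts was 0.832% to 2.9% in collagen and 0.583% to 1.68% in suspension, and its part in any of the differences was not tested.

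Genes whose pattern lay nearest to each member were taken by Pearson's r of log2 CPM centred within each replicate, over the 18 libraries, as a description across libraries that share their replicate's date and lane. Flt3 lay nearest to Iqce (r = 0.917), Gpn1 (0.913) and Rpap1 (0.912), and Csf2rb to Gtf3c1 (0.973), Csf2rb2 (0.965) and Pcnx3 (0.961). Adgre1 lay nearest to Lpxn (0.932), Pilra (0.922) and Gla (0.918), and Csf1r to Tmem43 (0.9) and Itgb2 (0.9). Csf2ra lay nearest to Galns (0.936), Ucp2 (0.918) and Cd37 (0.908), Spi1 to Cd63 (0.929), Mfsd5 (0.924) and Sgf29 (0.897), and Zbtb46 to Tbc1d9 (0.912), Ankrd33b (0.904) and Pou2f1 (0.897). Mertk had the loosest neighbours, Efr3b (0.844), Ddx58 (0.839) and Col4a2 (0.794). No member was among the nearest 3 genes of another.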

How the data were processed

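The authors sequenced 50-base reads of stranded mRNA libraries and aligned them with STAR 2.7.0f to GRCm38, per the labels; the deposited table holds raw counts per Ensembl gene, the study names RSEM for its TPM values, and whether RSEM made the counts, and with which strand setting, is not given in the sources used here. Symbols from GENCODE M21 matched 29866 of 29875 IDs. Counts were tested with edgeR 4.0.16 (TMM scaling, filterByExpr, quasi-likelihood test, 6 group means, all 18 libraries, FDR 0.1). Replicate numbers pair libraries across groups, since their names share a date and lane. Deviations from group means correlated at a mean of 0.434 within a number (lowest -0.149, mean for replicate 2 0.236). Between numbers the mean was -0.259, but deviations from a mean of 3 libraries push this value below 0 by themselves. The block lowered the biological coefficient of variation from 49% to 33.1%. DESeq2 1.42.0, other scaling, no filter, GC and length offsets and omissions were alternatives. Log2 CPM used a prior count of 2. Scripts were tested on simulated data. The members and gene lists were chosen with earlier results of these data known. All 9 members are named, from each list up to 3 called genes with the smallest p, and other genes were named for their known role after their values were seen. A neighbour of Csf1r by correlation is not reported here.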

Additional observations from a re-analysis of the deposited data

Results flagged for a closer look

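A library far from the others was looked for among the 6 suspension libraries only, and the 12 collagen libraries were not checked this way. Zbtb46 was the only result marked. Replicate 2 of the group titled without CCL19 held 65.15 CPM, the next highest of the 6 suspension libraries held 44.15 CPM, and this gap was 0.748 of their whole range. Among 10 measures checked this way, the 9 genes and the total count, chance alone marks about 1 in 20.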

How the results depend on the processing

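The replicate block and corrections for GC content and length moved most calls. Against the 1 member called in collagen against suspension, the block gave 3 members, DESeq2 with the block 3, no filter on low counts 2, GC and length offsets 0, the block with these offsets 3, and either suspension group alone as the control 0. Leaving out replicates or single libraries gave 0 to 1. At 1.7, 2.6, 3.5 and then 4.4 mg/ml, with no member called, DESeq2 with the block gave 2, 2, 2 and 3, the block 0, 2, 2 and 3, the block with offsets 0, 2, 1 and 5, and no filter 0, 1, 0 and 2. DESeq2 gave 1 at 2.6 and 1 at 4.4 mg/ml, and offsets alone gave 1 at 4.4 mg/ml, where omissions gave 0 to 1 (Csf2rb, without replicate 3 of either suspension group). For the trend and for 4.4 against 1.7 mg/ml, DESeq2 with the block called 1 member, Mertk, and the block with offsets called it in the latter, 1 of 8. For any difference among the 6 groups (0), the block gave 3, DESeq2 with it 4, the block with offsets 2 and no filter 1. The omissions in the blocked fit and the test of replicate numbers were added after the data were seen; those omissions left 2 to 3 members called in collagen, 1 to 2 at 2.6, 0 to 2 at 3.5 and 2 to 4 at 4.4 mg/ml.

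Some directions turned with the fit, the control group or the libraries left out. In collagen against suspension Csf1r became 0.10 with the replicate block, 0.14 in DESeq2 with it, 0.16 with offsets, 0.36 with both and 0.26 against the group titled without CCL19, and ranged from -0.36 to 0.53 over omissions. Csf2ra became 0.0237 in DESeq2, 0.025 in DESeq2 with the block and 0.0237 with its size factors in edgeR, 0.17 with offsets, 0.16 with offsets and block and 0.25 against the group titled without CCL19, with omissions from -0.0661 to 0.0723. Spi1 became -0.0358 against the group titled plus CCL19, with omissions from -0.0031 to 0.18. Mertk ranged from -0.48 to 0.0373 over omissions, at 3.5 mg/ml from -0.96 to 0.0282 and at 4.4 mg/ml from -0.25 (without replicate 1 there) to 0.84. At 2.6 mg/ml Csf2rb became 0.0261 with the block and offsets and ranged from -0.54 to 0.10, and Adgre1 at 3.5 mg/ml from -0.19 (without replicate 1 there) to 0.96. The cause of these changes was not tested. Low counts limit Cd209a, Mertk and Flt3, and counting error was not separated from the spread between libraries.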
